A study of Homo sapiens with 6 samples.

Results

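The WNT ligands, frizzled receptors, co-receptors and secreted antagonists, with the pathway targets AXIN2, LEF1 and TCF7, were followed in RNA-seq libraries of hFOB 1.19 cells. The 45 genes were chosen by family membership and matched by gene symbol among the 35639 genes of the deposited table; they comprise 17 ligands, 10 frizzled receptors, 5 co-receptors, 10 antagonists and 3 targets. hFOB 1.19 cells are osteoblast precursors of human fetal origin, kept dividing by a form of the SV40 large T antigen that loses its activity at higher temperature. All cells were kept at 34 °C and had been transduced with the lentiviral vector pHIV-dTomato and sorted for dTomato, and they were collected 15 days after transduction. The vector was empty (EV), or carried HA-tagged histone H3.3 as the wild type (WT, H3.3-WT) or with glycine 34 replaced by tryptophan (G34W, H3.3-G34W). The transgene is the Drosophila gene for H3.3, so values of the human H3.3 genes do not check the labels. Each group had 2 libraries. The paper's methods say that the cells were collected in duplicate, and define replicates as biological ones within an experiment, such as several wells. Nothing in the labels says whether the libraries came from separate cultures, so p-values measure only the spread between these libraries.

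Values are normalised estimated counts. Groups followed the library titles, and the columns of the deposited values carry the same group names. In the labels, the field for genotype swaps WT and G34W. Each comparison below, those with EV included, and the group to which a library belongs therefore rest on the titles. EV replicate 1 was listed at 0 for 80.5% of the genes and for 32 of the 45 members, and was left out of the comparisons except in 1 alternative, a fit of all 6 libraries. The normalised counts of the other 5 libraries summed to between 38821143 and 48024590; their depth in reads is unknown.

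The cell type was checked with lists of marker genes. Of 12 osteoblast lineage genes, COL1A2 was the most abundant, between 90034 and 138799 in the 5 libraries, and the summed level of the list was 192339 in G34W replicate 1 and 203053 to 262591 in the other 4. RUNX2, the master transcription factor of the lineage, was between 236 and 573. ALPL, the bone alkaline phosphatase, was the 1 gene of this list over 2 times its highest other value in G34W replicate 1, at 1216 against 107 to 428; such ratios within the 5 libraries were taken after 1 was added to each value. Of genes of the later stages, SPP1 was between 171 and 649 and BGLAP between 4.08 and 44.9. SP7 reached at most 6.03, and IBSP was listed at 0 in 4 libraries and was 2.50 in EV replicate 2.

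G34W replicate 1 stood apart in another list. All 12 pluripotent stem cell genes were over 2 times their highest value in the other libraries, and their sum was 66576 in that library against 1142 in EV replicate 2, 985 and 1073 in WT, and 964 in G34W replicate 2. POU5F1, the most abundant of them, was 19441 in that library and at most 75.4 in the others, and none of the 12 was at 0 in it. Of the 5 epithelial genes, EPCAM was 2175 and CDH1 was 2104 in that library, against at most 46.6 and 64.9 in the others, and the other 3 genes of the list were not over 2 times in it. The sums of the epithelial list, led by KRT18, lay between 36039 and 46959 in the 5 libraries. The neural list, led by NES, summed to 9802 in G34W replicate 1 and to 13320 to 21219 in the other libraries, with SOX1 at most 2.27; PAX6 was 37.2 in the former and at most 5.96 in the others. The endothelial list, led by TEK, summed to 876 in G34W replicate 2 and to 2090 to 2324 elsewhere, and its member KDR was 656 in G34W replicate 1 and at most 78.3 in the others. The 10 myeloid and osteoclast genes, led by CD68, summed to 1304 to 1580, with TYROBP and OCSTAMP at 0 in all 5, and ACP5 was 144 in G34W replicate 1 and at most 64.5 in the others. The part of the pluripotency signal in the results below was not tested, and in bulk RNA more cells of a type and more RNA per cell cannot be told apart. Members that were high in that library are therefore described separately.

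WNT proteins are secreted, lipid-modified ligands that bind frizzled receptors on the cell surface. With the co-receptors LRP5 and LRP6 they stabilise beta-catenin, which acts with TCF and LEF factors to induce targets such as AXIN2; with ROR1, ROR2 or RYK, ligands such as WNT5A act largely without beta-catenin. SFRP proteins, FRZB and WIF1 bind the ligands, and DKK1 blocks LRP5 and LRP6. In osteoblasts this pathway promotes bone formation, and loss of LRP5 function lowers bone mass.

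No member passed the test in any comparison: the adjusted p from limma was 0.9998 for each of the 35 members tested, and for each of the 76 other pathway genes tested, in both comparisons of G34W, and 1 in that of WT with EV. limma, fitted over the 16259 genes with a mean of at least 10 in the 5 libraries, 35 of them members, gave 0 genes (0%) with a Benjamini-Hochberg adjusted p under 0.05 for G34W against WT, with 439 genes (2.70%) and 2 members (5.71%, WNT5B and ROR1) at an unadjusted p under 0.05. Those unadjusted counts depended on single libraries: they were 226 genes and 0 members without G34W replicate 1, 1510 and 6 without G34W replicate 2, 556 and 4 without WT replicate 1, and 287 and 2 without WT replicate 2. With no trend in the variance they were 486 and 0, and those given next for the comparisons with EV became 446 and 0 for G34W and 377 and 1 for WT. G34W against EV gave 0 genes (0%), with 317 genes and 0 members at an unadjusted p under 0.05, and WT against EV gave 0 genes (0%), with 157 genes and 0 members. Without G34W replicate 2 the former unadjusted counts were 1311 and 4, and the latter, with each library left out in turn, 108 to 268 genes and 0 members. These comparisons share libraries. With 2 libraries a group, the smallest two-sided p of an exact permutation test is 0.333. The median log2 fold change of the 35 members was -0.02 for G34W relative to WT, with 16 higher and 19 lower. It was taken on the log2(value + 1) scale, which understates low genes. The median of all 16259 genes tested was -0.06, with 7010 higher and 9248 lower. Relative to EV the members had a median of -0.11 in G34W and of -0.11 in WT, where all genes tested had -0.03 and 0.02.

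In 7 of the 35 members (20.0%) each G34W library was above each WT library (WNT11, FZD5, FZD7, ROR1, SFRP1, SFRP5 and AXIN2), against 11.6% of all genes tested. They were below for 4 (11.4%; WNT3, WNT5B, DKK3 and LEF1), against 14.7%. Requiring a gap of over 1.5 times left ROR1 and WNT11 above and 0 below, against 1.97% and 1.32% of all genes. WNT11, with a mean of 7.74 in WT and 27.2 in G34W, reached the filter's mean of 10 through the G34W libraries. Its place among the members above WT, and in both of these counts, was therefore set in part by the filter. After each library was rescaled to a median ratio of 1, SFRP1 and DKK3 were no longer separated and DKK2 and WNT16 were. With G34W replicate 2 alone, an alternative chosen after the data were seen, 15 members lay above both WT libraries, against 31.8% of all genes, and 6 below, against 23.2%.

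**Figure D1:**
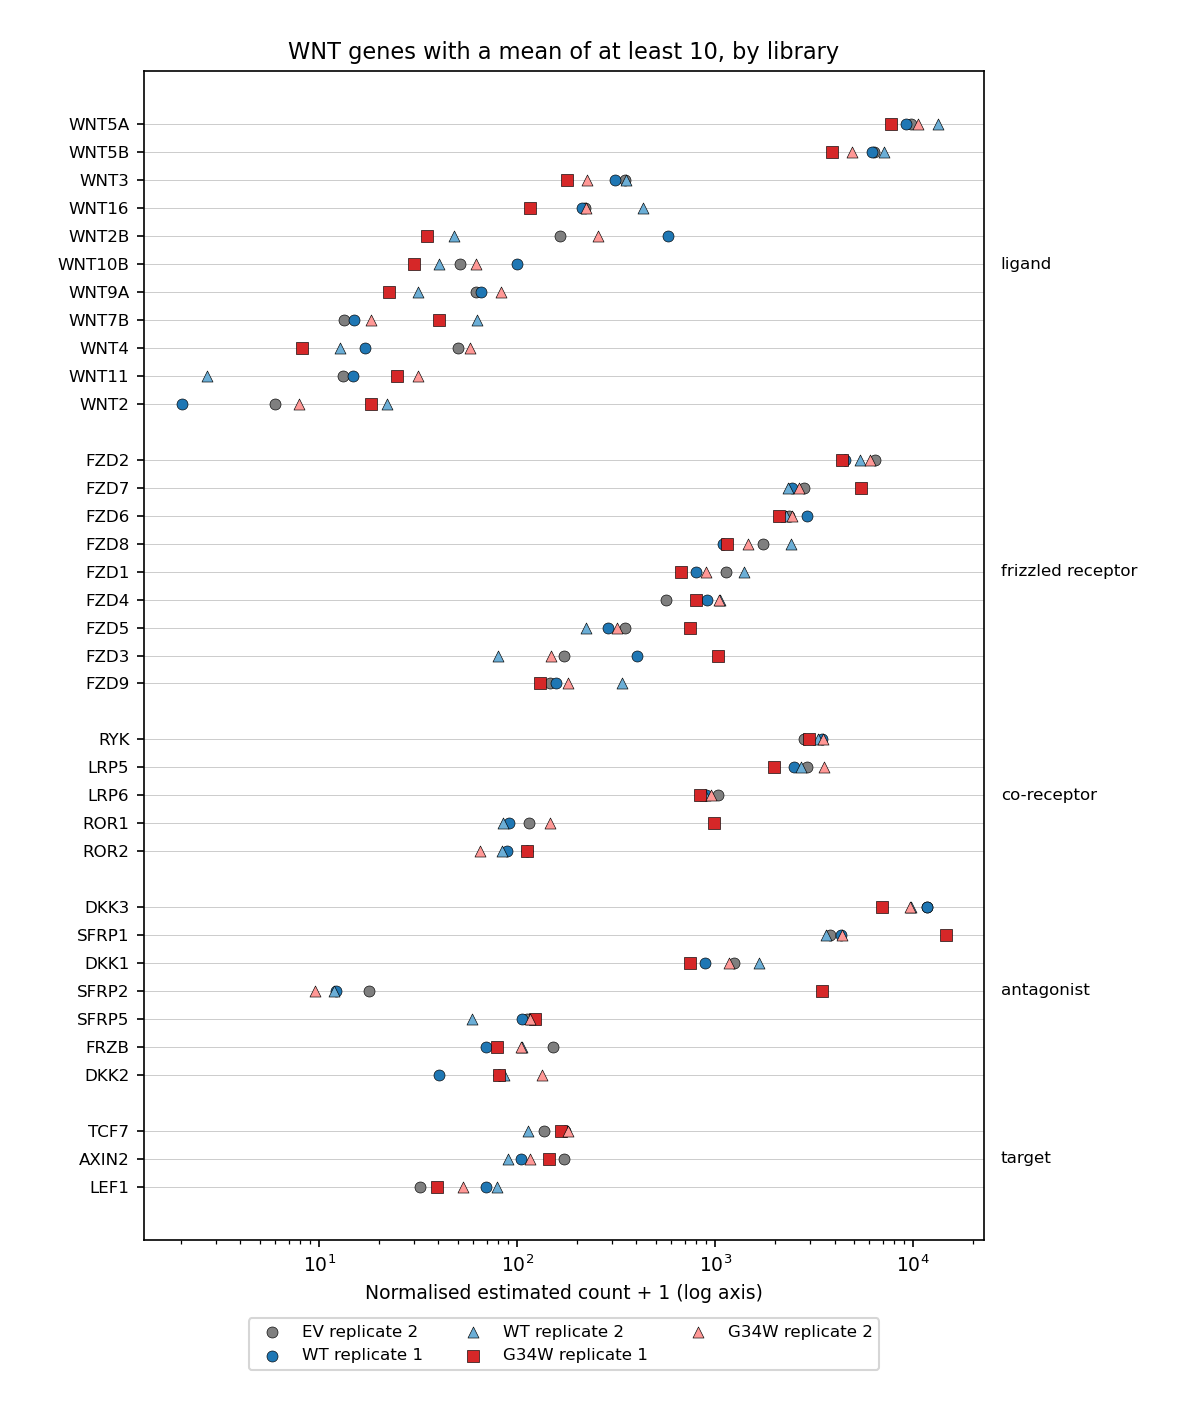
Normalised estimated count plus 1 (log axis) of the 35 members with a mean of at least 10, by role; each point is 1 library, coloured by group and replicate. The squares of G34W replicate 1 lie far to the right for SFRP2, ROR1, SFRP1 and FZD3 and lowest of the 5 for 8 of the 11 ligands.

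The 2 G34W libraries were then compared one at a time with the WT mean. In replicate 1 the median log2 ratio was -0.17 over all genes tested and -0.19 over the members; in replicate 2 it was 0.04 and 0.09. The rescaling moved the median of all genes in replicate 1 by over 0.1, to 0.01, and that of the members to -0.01. G34W replicate 1 was the lowest of the 5 libraries for 16 members (45.7%), against 40.0% of all genes, and for 13 members against 25.2% after rescaling. Among these were 8 of the 11 ligands tested, also after rescaling. G34W replicate 2 was above EV replicate 2 and both WT libraries for 10 members (28.6%, against 25.1% of all genes) and below them for 5 (14.3%, against 16.3%). After rescaling, 6 were above, against 20.2% of all genes, and 5 below, against 21.2%. The counts of members lowest in G34W replicate 1, and of members with G34W replicate 2 above or below EV and WT, were chosen after the data were seen. This holds with and without rescaling.

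**Figure D2:**
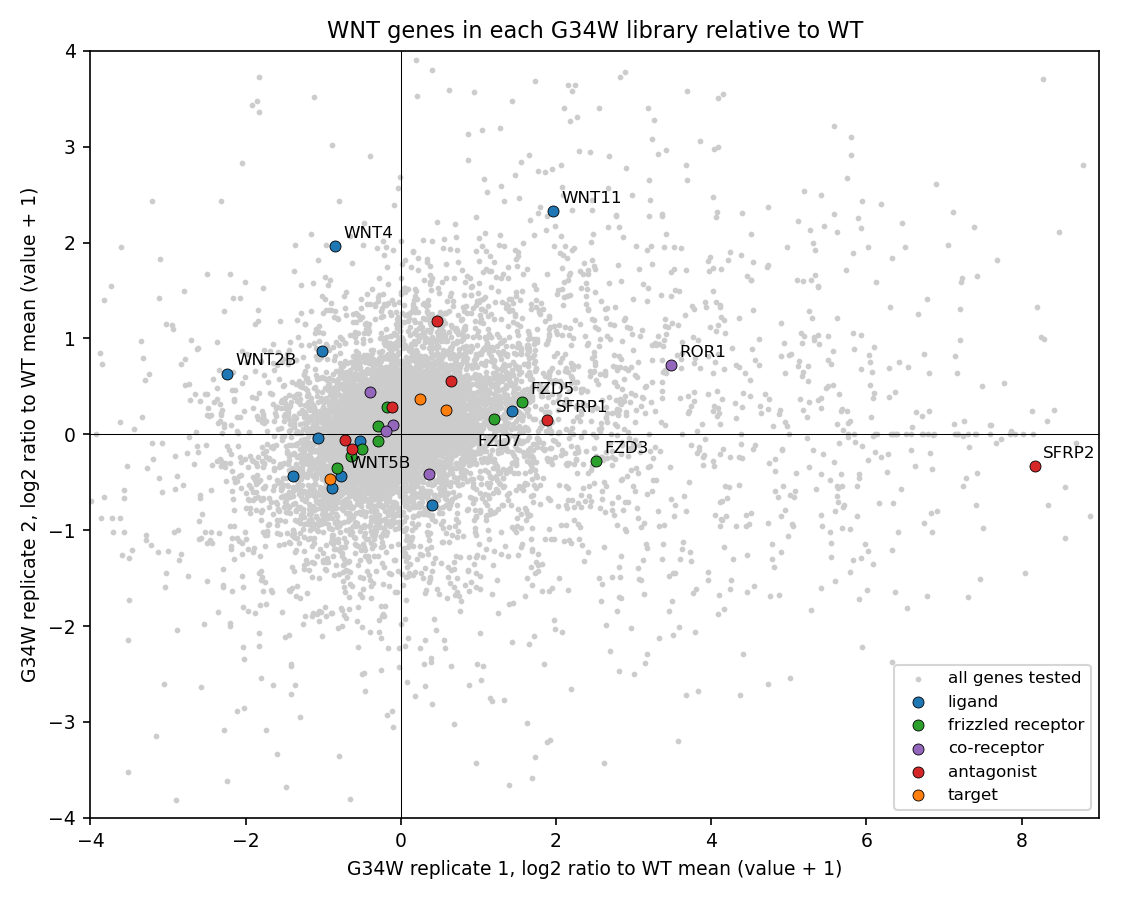
Log2 ratio of each G34W library to the mean of the WT libraries, on the log2(value + 1) scale, with replicate 1 on the horizontal and replicate 2 on the vertical axis; coloured points are the 35 members by role and grey points all genes tested, of which 69 of 16259 lie outside the window. SFRP2 reached 8.17 in replicate 1 and -0.33 in replicate 2, and WNT11 1.96 and 2.32.

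Levels of different genes were compared per kilobase of canonical transcript, as the mean of the 4 libraries without G34W replicate 1. The antagonist DKK3 was highest at 4242 per kb, with a range over libraries of 3816 to 4661. WNT5B followed at 2735 (2185 to 3181) and WNT5A at 1831 (1570 to 2288), whose ranges overlapped. The receptor FZD2 was at 1479 (1198 to 1699) and overlapped with WNT5A, and RYK was at 1073 (925 to 1143) and SFRP1 at 900.0 (807 to 978). The ranges of RYK and SFRP1 overlapped, as did those of SFRP1 and DKK1. DKK1, FZD6, LRP5, FZD7 and FZD8 followed in this order between 688 and 414 per kb, each range overlapping the next, while that of FZD6 lay above those of FZD7 and FZD8. The ligands other than WNT5A and WNT5B were at or below 93.7 per kb, the level of WNT3.

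**Figure D3:**
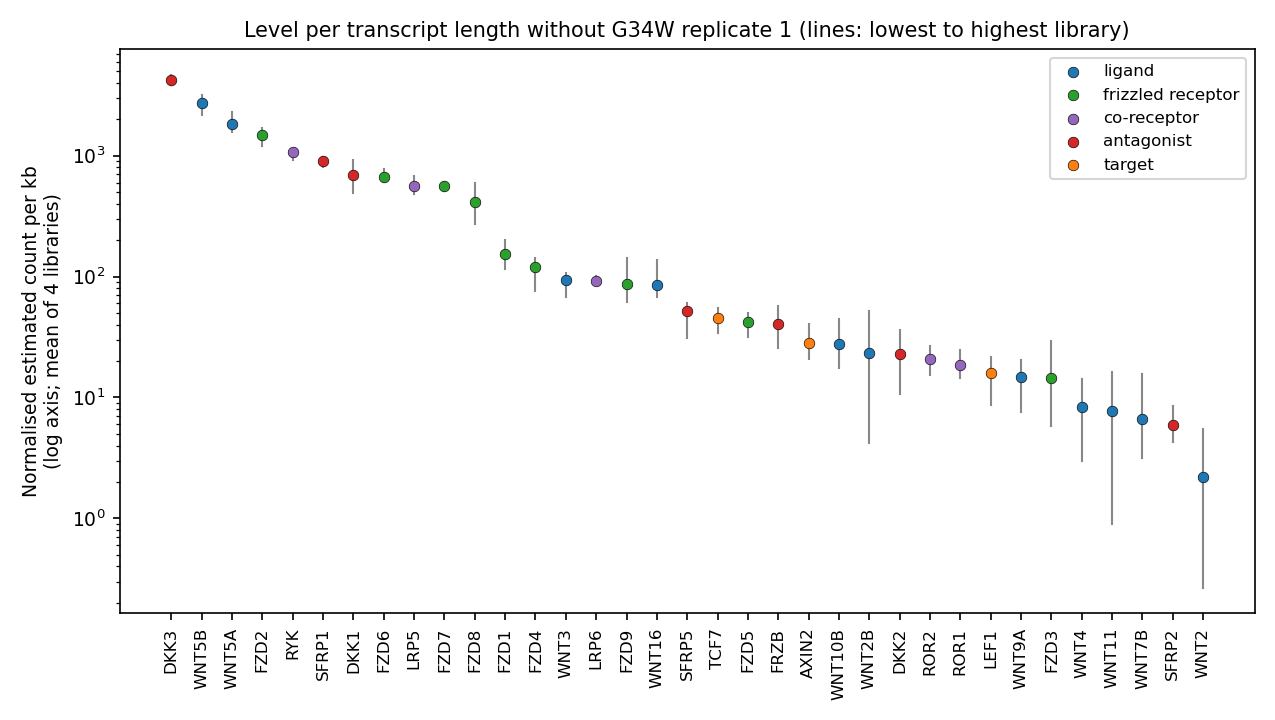
Normalised estimated count per kilobase of transcript (log axis) of the 35 members, as the mean of EV replicate 2, both WT libraries and G34W replicate 2; lines run from the lowest to the highest of these libraries and colours give the role. The means of DKK3, WNT5B, WNT5A, FZD2 and RYK stand between 1073 and 4242 per kb, and those of the other ligands at or below 93.7.

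Of the 17 ligands, 11 were tested, of which 3 were higher and 8 lower in G34W than in WT. Beside this and the same counts for the other roles, 7010 of all 16259 genes tested were higher and 9248 lower. The ligands had a median log2 fold change of -0.30, and -0.23 after rescaling. Without G34W replicate 1, 5 ligands were higher and 6 lower. In G34W replicate 1 alone the median was -0.84, and in replicate 2 alone -0.03. WNT5A and WNT5B, which signal mainly without beta-catenin and regulate cell movement and polarity, were the most abundant ligands per kilobase. WNT5A (ENSG00000114251; chromosome 3 of GRCh38.p14, 55465715 to 55505263) was 9729 in EV replicate 2, 9171 and 13365 in WT, and 7688 and 10515 in G34W. The groups overlapped; G34W differed from WT by a log2 fold change of -0.30 (standard error 0.29), and by -0.07 without G34W replicate 1 and -0.029 without WT replicate 2. WNT5B (ENSG00000111186; chromosome 12, 1617056 to 1647212) was 6313 in EV replicate 2, 6162 and 7119 in WT, and 3886 and 4890 in G34W. Both G34W libraries were below the other 3, also after rescaling. Its log2 fold change was -0.60 (standard error 0.25) with an unadjusted p of 0.0384, and -0.44 with an unadjusted p of 0.149 without G34W replicate 1.

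WNT3, a ligand of the beta-catenin branch, had its libraries in the same arrangement. WNT3 (ENSG00000108379; chromosome 17, 46762506 to 46818692) was 347 in EV replicate 2, 310.4 and 351 in WT, and 178 and 223 in G34W. Both G34W libraries were again below the other 3, and the log2 fold change was -0.73 (standard error 0.37) with all 5 libraries and -0.56 without G34W replicate 1. WNT16, which acts on cortical bone, was 218 in EV replicate 2, 212 and 429 in WT, and 115 and 222 in G34W, so that the groups overlapped.

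Many of the other ligands differed within WT. Of the 35 members, 11 (31.4%) differed by over 2-fold between the WT libraries after 1 was added to each value, against 14.2% of all genes tested, and 7 of them were ligands: WNT2, WNT2B, WNT7B, WNT9A, WNT10B, WNT11 and WNT16. WNT2B, for example, had 573 and 46.8 in WT, 34.1 and 256 in G34W, and 164 in EV replicate 2. WNT10B, which favours osteoblast over fat cell differentiation, was 99.2 and 39.1 in WT, and 29.3 and 60.9 in G34W. WNT11 was 13.8 and 1.72 in WT, and 23.7 and 30.7 in G34W, with 12.2 in EV replicate 2. It was the ligand with the largest log2 fold change, 2.14 (standard error 1.25), which was 0.92 without WT replicate 2 and 3.36 without WT replicate 1. WNT4 was 16.0 and 11.7 in WT, 7.21 and 56.4 in G34W, and 49.1 in EV replicate 2. WNT2, WNT7B and WNT9A were at most 21.0, 61.8 and 81.9 in the 5 libraries.

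The ligands under a mean of 10 were WNT1, WNT3A, WNT6, WNT7A, WNT8B and WNT10A. Their highest values were 2.84 for WNT1, 3.33 for WNT3A, 1.71 for WNT6, 13.8 for WNT7A, 13.3 for WNT8B and 13.6 for WNT10A. WNT3A, the ligand most used to activate the beta-catenin branch in culture, was above 0 only in WT replicate 1 among the 5 libraries.

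Of the 10 frizzled receptors, 9 were tested, 4 of them higher and 5 lower in G34W than in WT, and FZD10 was not, with at most 4.55. Their median log2 fold change was -0.10, and -0.037 after rescaling. FZD2, a receptor for WNT5A, was the most abundant per kilobase (ENSG00000180340; chromosome 17, 44557484 to 44561262). It was 6422 in EV replicate 2, 4527 and 5403 in WT, and 4373 and 6011 in G34W. The WT libraries lay inside the range of the G34W libraries, and the log2 fold change was 0.05 (standard error 0.26), with a negative sign without WT replicate 1 (-0.08) or without G34W replicate 2 (-0.18). FZD6 was between 2106 and 2910 and FZD8 between 1092 and 2404 in the 5 libraries. FZD1 was between 671 and 1389 and FZD9 between 129 and 335, each lowest in G34W replicate 1. FZD4, which also binds the ligand norrin, was 561 in EV replicate 2 and 796 to 1060 in the other 4 libraries. Its log2 fold change was 0.80 between WT and EV and 0.70 between G34W and EV, both resting on 1 EV library.

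All 5 co-receptors were tested; 2 were higher and 3 lower in G34W than in WT, which turned to 4 higher and 1 lower after rescaling, and also without G34W replicate 1. RYK, a receptor-like protein without kinase activity, was the most abundant per kilobase. RYK (ENSG00000163785; chromosome 3, 134157133 to 134250859) was 2817 in EV replicate 2, 3463 and 3319 in WT, and 2969 and 3481 in G34W. The groups overlapped; the log2 fold change was -0.08 (standard error 0.24), and 0.038 without G34W replicate 1. LRP5 was 2484 and 2723 in WT, and 1976 and 3539 in G34W, so that the lowest and the highest of the 5 libraries were both G34W. LRP6 was between 833 and 1033, and ROR2 between 63.7 and 110.4.

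Of the 10 antagonists, 7 were tested, 5 of them higher and 2 lower in G34W than in WT, also after rescaling, and 4 higher and 3 lower without G34W replicate 1. Their median log2 fold change was 0.60 in both G34W libraries together, 0.46 in replicate 1 and 0.15 in replicate 2. DKK3, the DKK family member that differs most from the LRP-blocking ones, was the most abundant per kilobase (ENSG00000050165; chromosome 11, 11963036 to 12009745). It was 11716 in EV replicate 2, 11768 and 9726 in WT, and 6910 and 9636 in G34W. Both G34W libraries were below both WT libraries, but not after rescaling, and the log2 fold change was -0.39 (standard error 0.27), and -0.15 without G34W replicate 1. DKK1, the inhibitor of LRP5 and LRP6, was 1244 in EV replicate 2, 891 and 1664 in WT, and 742 and 1170 in G34W, with overlap between the groups. SFRP5 (ENSG00000120057; chromosome 10, 97766751 to 97771999) was 111 in EV replicate 2, 104 and 58.3 in WT, and 122 and 115 in G34W. Both G34W libraries were above the WT libraries, but the log2 fold change of 0.60 (standard error 0.53) was 0.18 without WT replicate 2 and 1.01 without WT replicate 1. DKK2 was between 39.3 and 133 and FRZB between 68.3 and 151. SFRP4, WIF1 and DKK4 had means under 10, with highest values of 23.5 in WT replicate 2 for SFRP4, and of 28.4 for WIF1 and 6.65 for DKK4, both in G34W replicate 1.

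The 3 targets, read as a measure of beta-catenin activity in many cell types, had no order of groups in common. TCF7 (ENSG00000081059; chromosome 5, 134108218 to 134148210) was 135 in EV replicate 2, 174 and 112 in WT, and 165 and 180.1 in G34W. Its groups overlapped, with a log2 fold change of 0.30 (standard error 0.46), and -0.011 without WT replicate 2. LEF1 (ENSG00000138795; chromosome 4, 108047548 to 108168932) was 31.2 in EV replicate 2, 68.4 and 77.9 in WT, and 38.4 and 52.4 in G34W. Its G34W libraries were below WT and above EV replicate 2. The log2 fold changes were -0.69 against WT (standard error 0.64; -0.47 without G34W replicate 1) and 0.51 against EV. AXIN2, described after its values were seen, was 171 in EV replicate 2, 103 and 89.2 in WT, and 144 and 115 in G34W, the reverse order. For G34W relative to WT its log2 fold change was 0.42 (standard error 0.47), and 0.26 without G34W replicate 1.

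In G34W replicate 1, 5 of the 35 members (14.3%; FZD3, FZD5, ROR1, SFRP1 and SFRP2) were over 2 times their value in every other library, against 6.03% of all genes tested. FZD7 lay just outside at 1.95 times its highest other value and FZD5 just inside at 2.14 times. At over 4 times there were 2, ROR1 and SFRP2, against 3.52% of all genes tested. FZD7 passed after rescaling, which gave 6 members against 6.94% of all genes. The same library held the pluripotency signal, the part of which in these values was not tested. Under the mean of 10, WIF1, DKK4 and WNT7A were also over 2 times in that library.

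SFRP2, a secreted frizzled-related protein, differed most. SFRP2 (ENSG00000145423; chromosome 4, 153780591 to 153789083) was 16.9 in EV replicate 2, 11.1 and 10.9 in WT, and 3470 and 8.53 in G34W. G34W replicate 2 was the lowest of the 5 libraries. The log2 fold change of 3.92 (standard error 2.12) was -0.33 without G34W replicate 1. SFRP1 (ENSG00000104332), the most abundant SFRP gene here, was 3780 in EV replicate 2, 4318 and 3605 in WT, and 14589 and 4368 in G34W. Without the first G34W library the values lay close together, and its log2 fold change went from 1.02 (standard error 0.47) to 0.15.

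ROR1, a receptor tyrosine kinase-like protein that binds WNT5A, was the only one of these 5 in which G34W replicate 2 also exceeded the other 3 libraries both before and after rescaling. ROR1 (ENSG00000185483; chromosome 1, 63774017 to 64181498) was 114 in EV replicate 2, 90.2 and 84.2 in WT, and 983 and 145 in G34W. The log2 fold change was 2.10 (standard error 0.77) with an unadjusted p of 0.0235, and 0.72 with an unadjusted p of 0.270 without G34W replicate 1.

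The receptors of this kind were FZD3, FZD5 and, by a smaller ratio, FZD7. FZD3 (ENSG00000104290) was 171 in EV replicate 2, 404 and 79.3 in WT, and 1030 and 147 in G34W. Its second WT library was the lowest of the 5, and the log2 fold change of 1.12 (standard error 0.93) was -0.28 without G34W replicate 1 and -0.05 without WT replicate 2. FZD5 (ENSG00000163251; chromosome 2, 207762598 to 207769906) was 349 in EV replicate 2, 285 and 222 in WT, and 747 and 318 in G34W. G34W replicate 2 was above WT and below EV replicate 2, and the log2 fold change was 0.95 (standard error 0.45), and 0.33 without the first library. FZD7 (ENSG00000155760; chromosome 2, 202033855 to 202038441), a receptor for several WNT ligands, was 2803 in EV replicate 2, 2433 and 2322 in WT, and 5453 and 2655 in G34W. Its log2 fold change was 0.68 (standard error 0.34), and 0.16 without G34W replicate 1.

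**Figure D4:**
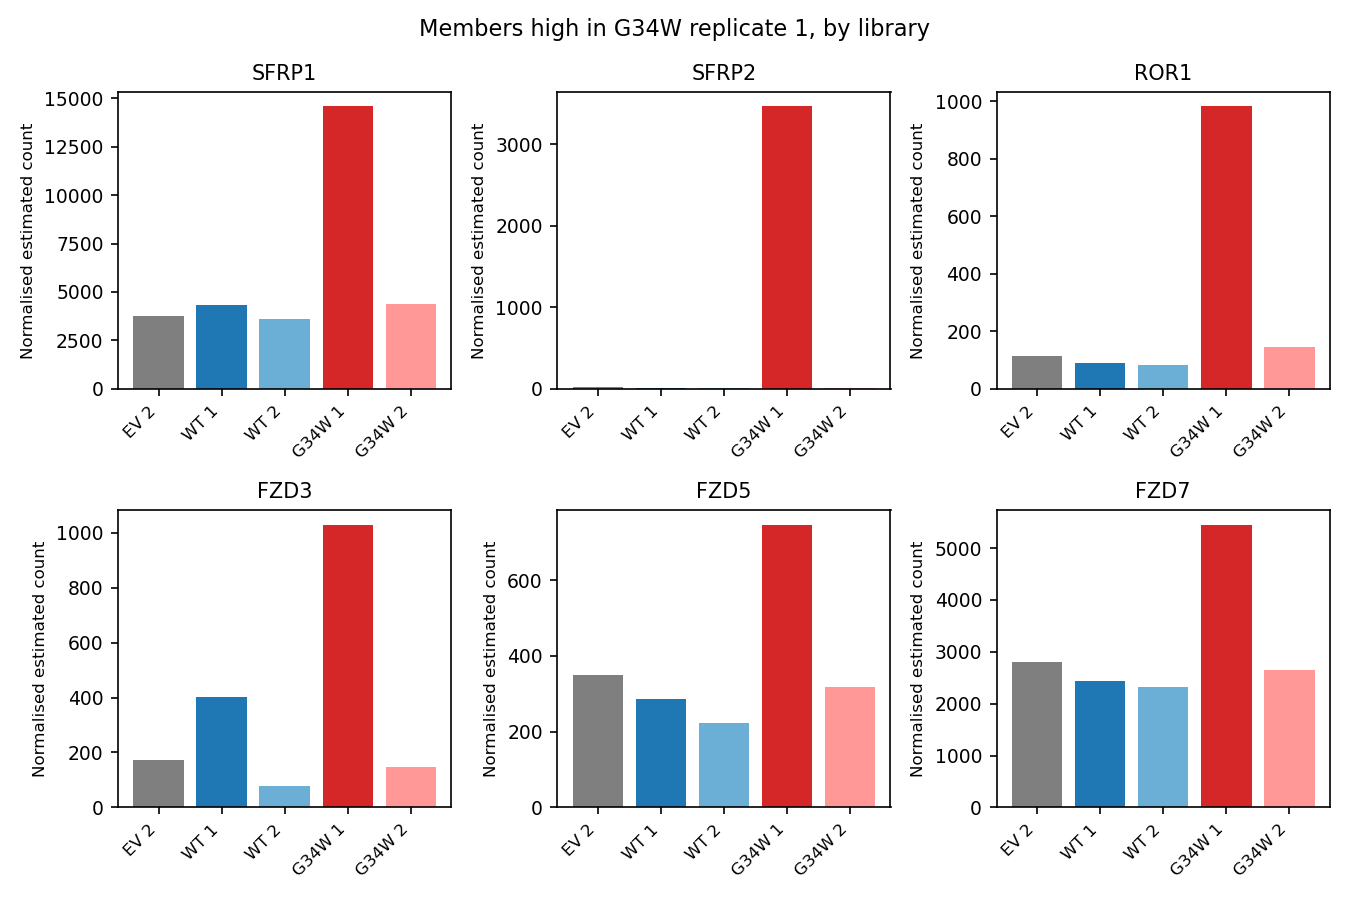
Normalised estimated count (linear axes from 0, each panel with its own scale) of SFRP1, SFRP2, ROR1, FZD3, FZD5 and FZD7, with 1 bar for each library. The bar of G34W replicate 1 is the highest in every panel, from 1.95 times the next library for FZD7 to 3470 against at most 16.9 for SFRP2.

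Of the 5 tested members over 2 times in G34W replicate 1, the promoters of ROR1, FZD5 and SFRP2 are shown. The other members of that group, SFRP1 and FZD3, had no entry in the RefSeq promoter table, so their promoters were not examined. Of the 45 members, 31 had an entry in that table. Each window holds 250 bases before and 50 bases from the annotated start, on GRCh38.p14, written 5′ to 3′ on the gene's strand. Capitals mark a CCAAT box (CCAAT or its complement ATTGG) and the POU-factor octamer ATGCAAAT on either strand. ROR1 lies at chr1:63773767-63774066 on the plus strand, FZD5 at chr2:207769857-207770156 on the minus strand and SFRP2 at chr4:153789034-153789333 on the minus strand.
ROR1: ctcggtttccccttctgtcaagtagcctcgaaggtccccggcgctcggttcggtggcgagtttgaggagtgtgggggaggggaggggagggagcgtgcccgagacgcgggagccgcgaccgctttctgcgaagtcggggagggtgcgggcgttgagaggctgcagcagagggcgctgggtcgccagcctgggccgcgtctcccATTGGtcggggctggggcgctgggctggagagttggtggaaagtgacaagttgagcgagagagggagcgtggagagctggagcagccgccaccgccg
FZD5: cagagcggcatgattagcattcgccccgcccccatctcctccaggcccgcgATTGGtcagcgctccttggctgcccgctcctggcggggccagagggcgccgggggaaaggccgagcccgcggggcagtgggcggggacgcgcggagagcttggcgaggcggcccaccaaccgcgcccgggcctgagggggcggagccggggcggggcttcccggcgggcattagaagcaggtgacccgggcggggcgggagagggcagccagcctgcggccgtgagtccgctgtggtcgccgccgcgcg
SFRP2: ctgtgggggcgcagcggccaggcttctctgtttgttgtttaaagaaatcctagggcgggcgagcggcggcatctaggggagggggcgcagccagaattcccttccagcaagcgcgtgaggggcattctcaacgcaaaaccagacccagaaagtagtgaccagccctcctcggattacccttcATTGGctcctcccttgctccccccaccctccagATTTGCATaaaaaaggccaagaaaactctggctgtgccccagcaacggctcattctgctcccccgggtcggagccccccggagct

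All 3 windows held a CCAAT box, a motif chosen after the sequences were seen, as did 34.6% of the 35116 promoters of the table and 14 of the 31 members. The octamer was in the SFRP2 window, starting 35 bases before the annotated start, and not in those of ROR1 and FZD5. It was in 1.77% of all promoters and in 1 of the 31 members. The TCF and LEF motif, CTTTG followed by AA, AT, TA or TT on either strand, was in none of the 3. It was in 13.8% of all promoters and, among the members, in those of DKK1, TCF7 and WNT3. The GC box GGGCGG was in the FZD5 and SFRP2 windows and in 45% of all promoters, 28 of the 31 members among them. The windows held 29 CG dinucleotides in ROR1, 38 in FZD5 and 15 in SFRP2, with a median of 14 over all promoters. A match is a description of the letters and says nothing of binding.

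Of 83 other WNT pathway genes, 76 were tested, and 0 passed in any of the 3 comparisons in limma; 3 (3.95%, against 2.70% of all genes tested) had an unadjusted p under 0.05 for G34W against WT, 2 (2.63%, against 1.95%) for G34W against EV, and 1 (1.32%, against 0.966%) for WT against EV. The first count was 0 without G34W replicate 1 and 10 without G34W replicate 2. The second was 6 without G34W replicate 2 and 1 with WT replicate 1, WT replicate 2 or G34W replicate 1 left out, and the third was 0 with any of these 4 left out. With no trend in the variance the count for G34W against WT was 1, and those for the comparisons with EV were higher. The median log2 fold change of the 76 genes for G34W against WT was -0.05, with 31 higher and 45 lower. Among all genes tested 7010 were higher and 9248 lower. Both G34W libraries were above both of WT for 9 (11.8%, against 11.6% of all genes tested) and below for 9 (11.8%, against 14.7%). Among genes chosen as examples after their values were seen, CTNNB1, which encodes beta-catenin, was between 29179 and 40822, AXIN1 between 2415 and 3827, and WLS, which carries WNT proteins to the surface, between 3652 and 6990. SOST, the osteocyte antagonist sclerostin, was at most 3.64 and was not tested.

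Of these genes, some had both G34W libraries on the same side of WT. TRABD2A, a protease that inactivates WNT proteins, was 1135 in EV replicate 2, 689.6 and 856 in WT, and 453 and 500.3 in G34W. It was lowest in both G34W libraries, with log2 fold changes of -0.69 against WT and -1.25 against EV. In limma the unadjusted p against WT was 0.0465, and 0.0518 without EV replicate 2. The log2 fold change against WT was -0.53 without WT replicate 2 and -0.845 without WT replicate 1. TSPAN12, a partner of FZD4 in norrin signalling, was 80.7 in EV replicate 2, 49.2 and 113 in WT, and 218 and 165 in G34W, with a log2 fold change of 1.33 (unadjusted p of 0.0410), and 0.74 (unadjusted p of 0.268) without WT replicate 1. TLE2, a corepressor of TCF factors, was 83.5 and 69.5 in WT, and 130.4 and 96.8 in G34W, with 55.5 in EV replicate 2. TNFRSF19, a target of beta-catenin signalling, was 337 and 639 in WT, and 318 and 298 in G34W, with 518 in EV replicate 2. In DAAM1, an effector of the planar polarity branch described after its values were seen, the G34W libraries lay on both sides of WT. It was 185 in EV replicate 2 and between 348 and 436 in the other 4 libraries. Its log2 fold changes against EV, which rest on 1 EV library, were 1.02 in WT and 1.07 in G34W.

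In G34W replicate 1, 7 of the 76 (9.21%) were over 2 times every other library, against 6.03% of all genes tested: GPC4, RSPO2, RSPO4, TCF7L1, TCF7L2, VANGL2 and GJA1. GPC4, a cell-surface heparan sulfate proteoglycan that binds WNT proteins, was 3966 in that library and 16.0 to 23.9 in the other 4. VANGL2, a core planar polarity protein, was 1088 in it, 273 in G34W replicate 2, 145 and 165 in WT, and 322 in EV replicate 2. Its log2 fold change was 1.81 (standard error 0.59) with an unadjusted p of 0.0130, and 0.82 with an unadjusted p of 0.153 without G34W replicate 1. The transcription factors TCF7L1 and TCF7L2 were 383 and 336 in that library, against at most 168 and 148 in the others, and the gap junction gene GJA1 was 16156 against at most 7196. RSPO4, a ligand of LGR receptors described after its values were seen, was 63.2 in it and at most 0.936 elsewhere, and passed the filter through that library alone. Its place among the 7, and in their share, was therefore set by the filter.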

How the data were processed

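RNA-seq values were analysed for 6 libraries of hFOB 1.19 cells, with groups and replicate numbers taken from the library titles. Per the paper's methods and the submitters' notes, kallisto estimates on Ensembl transcripts (GRCh38) were imported per gene by tximport, and DESeq2 did the normalisation. The deposited values are this normalised signal, estimated counts scaled to a common level across libraries. Whole reads could not be recovered from them, so the depth of each library is unknown and no count test was run; the precision of a value was judged from the spread between libraries.

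EV replicate 1, listed at 0 for most genes, was left out except in 1 alternative. Values of the remaining 5 libraries were taken as log2(value + 1) and fitted together as 3 groups with limma 3.58.1 in R 4.3.3, with a trend in the prior variance, over genes with a mean of at least 10. P-values were adjusted by Benjamini-Hochberg over all genes tested, with a threshold of 0.05. EV, with 1 library in the fit, was assumed to vary like the other groups. With a library left out, a group left with 1 library was treated in the same way. The p-values and counts of such fits rest on the spread within the groups that kept both libraries.

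The 45 members and the other gene lists were chosen with earlier results of these data known. Values in every library are given for members with a mean of at least 50 that met any of 4 conditions: both G34W libraries above or both below the WT libraries with a log2 fold change of at least 0.5 in size; over 2 times every other library in G34W replicate 1; an adjusted p under 0.05; or the highest mean of their role. Other WNT pathway genes were named by the first 3 conditions, and further genes as examples chosen after their values were seen. Other pseudocounts, filters, a rescaling, a replicate block, all 6 libraries and leaving out each library were tried. Positions and promoters are those of RefSeq (GRCh38.p14), matched by symbol; transcript lengths are of the Ensembl canonical transcripts in GENCODE v44, as mapped to GRCh37. Figures were drawn with matplotlib 3.10.9.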

Additional observations from a re-analysis of the deposited data

Results flagged for a closer look

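The column of EV replicate 1, left out of the comparisons except in 1 alternative with all 6 libraries, held signal above that of the other EV library. Its normalised counts summed to 157595150, against 38821143 to 48024590 in the other 5 libraries, although 80.5% of the genes were listed at 0. The ratios below may therefore not compare values on a common scale. In it, 11 of the 45 members (24.4%) were over 2 times their highest value in the other 5 libraries, against 8.96% of all genes in the table. The share followed the chromosome: it was 54.1% over the genes with a RefSeq position on chromosomes 10, 11 and 12 and 2.46% over those on other chromosomes. Of the 14 members on chromosomes 10, 11 and 12, 10 were over 2 times (71.4%), at 10.7 to 47.2 times: DKK1, DKK3, FZD4, FZD8, LRP5, LRP6, SFRP5, WNT5B, WNT10B and WNT11. The other 4, WNT1, WNT8B, FZD10 and WIF1, were listed at 0 in it. DKK3, for example, was 325127 there and at most 11768 elsewhere. WNT10A, on chromosome 2, was 67.2 against at most 13.6, the 1 such member of 31 on other chromosomes (3.23%). In the same column 32 of the 45 members were listed at 0.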

How the results depend on the processing

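No member had an adjusted p under 0.05 from limma in any comparison under any alternative that was run. The lowest adjusted p of a member ranged from 0.0632 to 1 for G34W against WT, the former being SFRP2 without G34W replicate 2. It ranged from 0.147 to 1 for G34W against EV, and from 0.4605 to 1 for WT against EV. With each library left out in turn, limma called 0 to 13 of all genes for G34W against WT (13 without G34W replicate 2, 6 without WT replicate 1, 1 without WT replicate 2), 0 for G34W against EV, and 0 to 3 for WT against EV (3 without WT replicate 1). A pseudocount of 0.1 gave 1 gene in each comparison with EV. With a replicate block in the 4 WT and G34W libraries the count was 0, with 710 genes and 7 members at an unadjusted p under 0.05; the deviations of same-numbered libraries correlated at 0.0945 across genes, which are not independent. The log2 fold change changed sign for FZD2 (-0.18 to 0.28, with -0.076 without WT replicate 1), FZD3 (-0.28 to 2.52, with -0.049 without WT replicate 2), RYK (-0.19 to 0.038), SFRP2 (-0.33 to 8.17) and TCF7 (-0.011 to 0.62) with single libraries left out, and kept it under every alternative run for DKK3, FZD5, FZD7, LEF1, ROR1, SFRP1, SFRP5, WNT3, WNT5A and WNT5B, the other members chosen by the rule for named genes. Of members given as examples, WNT2B went from -0.80 to 0.63, FZD4 from -0.10 to 0.089, WNT9A from -0.075 to 0.87 and LRP6 from -0.0026 to 0.093 without G34W replicate 1. The members' median lay between -0.19 and 0.09. Members over 4 times every other library in G34W replicate 1 numbered 2, against 3.52% of all genes tested. A gap of over 1.5 times left 2 members above and 0 below, against 1.97% and 1.32% of all genes. Without G34W replicate 1, 15 of the 35 members lay above WT, against 31.8% of all genes. After rescaling, G34W replicate 2 was above the 3 controls for 6 of the 35, against 20.2% of all genes. Both counts were chosen after the data were seen. The cause was not tested. Depth is unknown, so low members such as WNT2 and WNT11 can be judged only by the spread between libraries.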
